A study of Bos taurus with 12 samples.

Results

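The miR-15/16 family, a group of miRNAs named for bta-miR-15a, bta-miR-15b, bta-miR-16a, bta-miR-16b, bta-miR-195, bta-miR-497 and bta-miR-424-5p, was examined in granulosa cells of bovine ovarian follicles. The members were taken by name from the deposited counts, in which all 7 names were found among 755 mature miRNA names. Each of the 7 had 1 precursor entry. Granulosa cells are the somatic cells that line the follicle and nourish the oocyte, and they came from subordinate (SF) or dominant (DF) follicles on days 3 and 7 of the cycle, with 3 biological replicates in each of the 4 groups. All animals were Simmental heifers whose cycles had been synchronized with a prostaglandin F2α analogue and a GnRH analogue before slaughter, and no other treatment is described. Follicles were classed as SF or DF by diameter, with other limits on day 7 than on day 3, and granulosa cells were pooled by follicle size, with far fewer follicles classed as DF than as SF. The heifers of day 3 and day 7 were different animals. Nothing in the labels ties a replicate to an animal, so that SF and DF libraries of a day may share animals, and the p values therefore measure the spread between these 12 samples.

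A miRNA finds its target messengers through the seed, a short stretch near its 5′ end, and the members of the miR-15/16 family carry the same seed. The family is known as a brake on the cell cycle, since its targets include cyclins and cyclin-dependent kinases of the G1 phase, and bta-miR-15a and bta-miR-16a belong to the hairpins known in other species for repressing the survival factor BCL2. In a growing follicle the granulosa cells divide rapidly, and they slow their division as the follicle matures or degenerates. The members lie in pairs in the genome. In the RefSeq gene table of the ARS-UCD2.0 assembly, which was used for names and gene order only, no other gene started between MIR15A and MIR16A, between MIR15B and MIR16B, which lie within the gene SMC4, or between MIR195 and MIR497. MIR424 was next to MIR503, in a row that goes on, after 1 other gene, with MIR542 and the MIR450 hairpins.

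With 1 entry per mature name, the reads per library ranged from 160418 to 405129, and the smallest library was replicate 2 of DF at day 7. A count of 0 allows a share of up to 3 reads, that is 0.000741% to 0.00187% of a library, by counting error alone. Values are given as normalized counts, which are raw reads divided by a median-of-ratios size factor taken over all 12 libraries. A miRNA is called differentially expressed here where its counts moved by 1 or more on the log2 scale with p no higher than 0.05 and FDR, the adjusted p, no higher than 10% in edgeR's quasi-likelihood test. SE stands for standard error. The granulosa cell label was set against bta-miR-202, a miRNA of the somatic cells of the gonad, which had between 364 and 3673 normalized counts in every library. It was lowest in the 3 DF libraries of day 7, at 753, 364 and 976, and 4 leukocyte miRNAs were summed to 3110, 8636 and 783 there against at most 705 in the other libraries. The part of other cells in the results on DF at day 7 was not tested.

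The family as a whole held a small part of the miRNA reads. At day 3 it made up 1.41% ± 0.0841 (SD, n = 3) of the SF reads and 1.84% ± 0.193 of the DF reads, and at day 7 the shares were 1.36% ± 0.246 and 0.803% ± 0.132. The 3 DF libraries of day 7 lay between 0.664% and 0.927%, under all other libraries, of which the lowest held 1.20%. The most read member was bta-miR-16b, which held 51.2% ± 2.44 of the family's reads in SF and 52.5% ± 1.15 in DF at day 3. For most members the make-up of the family was much alike in 3 of the groups and different in DF at day 7. There bta-miR-16a held 26.2% ± 1.48 of the family's reads, against 6.58% ± 0.731 (SF, day 3), 9.18% ± 0.674 (DF, day 3) and 7.98% ± 0.936 (SF, day 7). By contrast, bta-miR-424-5p held 1.13% ± 0.0466 in SF at day 7, against 2.31% ± 0.188 in SF and 2.09% ± 0.124 in DF at day 3. How well a miRNA is captured in a library depends on its own ends, so that read numbers of different miRNAs are not a scale of their molecules.

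**Figure D1:**
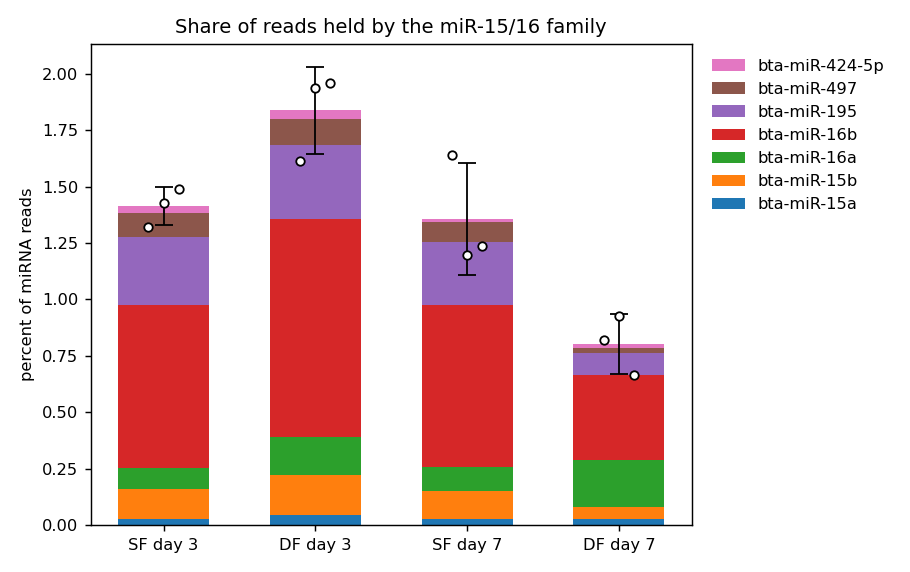
Share of the miRNA reads of a library held by the 7 family members (vertical axis, percent), as the mean of 3 libraries per group, stacked by member. White points are the summed share in single libraries and whiskers are the SD of that sum. DF at day 7, at 0.803%, lies under the other groups. The part of bta-miR-16a, relative to the whole bar, is wider there than in the other groups.

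Of the members, bta-miR-497 changed most. It is made from the same cluster as bta-miR-195 and is known for restraining cyclins. In the SF libraries of day 3 it had 246, 271 and 303 normalized counts, in the DF libraries of day 3 274, 309.9 and 250.2, and in the SF libraries of day 7 314, 203 and 250.5. The DF libraries of day 7 had 54.7, 68.2 and 78.3. The first 3 groups overlapped one another, and every DF library of day 7 was lower than every other library. The mean of DF at day 7 was 67.1 ± 11.8 (SD, n = 3), against 278 ± 30.1 in DF at day 3 and 256 ± 55.4 in SF at day 7.

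For bta-miR-195, too, DF at day 7 was lowest and the other 3 groups overlapped. Its normalized counts were 643, 869.7 and 879.5 in SF and 811, 856 and 768 in DF at day 3, while the SF libraries of day 7 had 675, 846 and 889. In DF at day 7 they were 292, 159.7 and 346, with a mean of 266 ± 96.1 (SD, n = 3). The means of the other groups, from 797 in SF at day 3 to 812 in DF at day 3, were within the spread of their libraries, and again no DF library of day 7 reached any of them.

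The miRNAs bta-miR-15b and bta-miR-16b also showed their lowest levels in DF at day 7. For bta-miR-15b the normalized counts were 371, 366 and 347 in SF and 373, 498 and 443 in DF at day 3. At day 7 the SF libraries had 471, 281 and 304 and the DF libraries 137, 176 and 103. For bta-miR-16b they were 1865, 1917 and 1955 in SF and 2172, 2529.7 and 2393 in DF at day 3. At day 7 the SF libraries had 2502, 1699 and 2006 and the DF libraries 974, 1266 and 837. In both, DF at day 3 had the highest mean and the DF libraries of day 7 lay under all others. SF at day 3 and SF at day 7 overlapped for both miRNAs.

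For the partner miRNAs, bta-miR-16a and bta-miR-15a, DF at day 7 did not have the lowest mean. The normalized counts of bta-miR-16a were 201, 256 and 286 in SF and 413, 405 and 419 in DF at day 3. At day 7 the SF libraries had 306, 298 and 323 and the DF libraries 582, 672 and 478. Its 4 groups did not overlap and were ordered, from the highest, as DF at day 7, DF at day 3, SF at day 7 and SF at day 3. DF at day 7 was thus the highest group for bta-miR-16a and the lowest for bta-miR-16b. The mature forms of bta-miR-16a and bta-miR-16b are nearly the same and differ only at the 3′ end, so that some reads of one may have been counted under the other, and the level of each is uncertain to that extent.

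The counts of bta-miR-15a were low and spread widely at day 7. They were 53.5, 72.7 and 66.0 in SF and 102, 109 and 103 in DF at day 3. At day 7 the SF libraries had 99.8, 63.7 and 65.3 and the DF libraries 68.4, 106 and 44.996. DF at day 3 was above both SF groups, while SF at day 3, SF at day 7 and DF at day 7 overlapped. Within DF at day 7, replicate 2 had the most bta-miR-15a, bta-miR-15b, bta-miR-16a and bta-miR-16b of the 3 libraries. It had the least bta-miR-195 and bta-miR-424-5p, at 159.7 and 24.95, while its bta-miR-497 lay between the other libraries. It also had the highest sum of leukocyte miRNAs, whose part in these levels was not tested.

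The remaining member, bta-miR-424-5p, which is made from the cluster that also holds bta-miR-503, separated the days. Its normalized counts were 74.0, 87.5 and 98.9 in SF and 92.4, 93.5 and 95.8 in DF at day 3, against 49.0, 37.4 and 45.8 in SF and 50.5, 24.95 and 63.0 in DF at day 7. Each library of day 7 was lower than each library of day 3, and the SF and DF libraries of a day overlapped. These were between 15 and 153 raw reads per library.

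**Figure D2:**
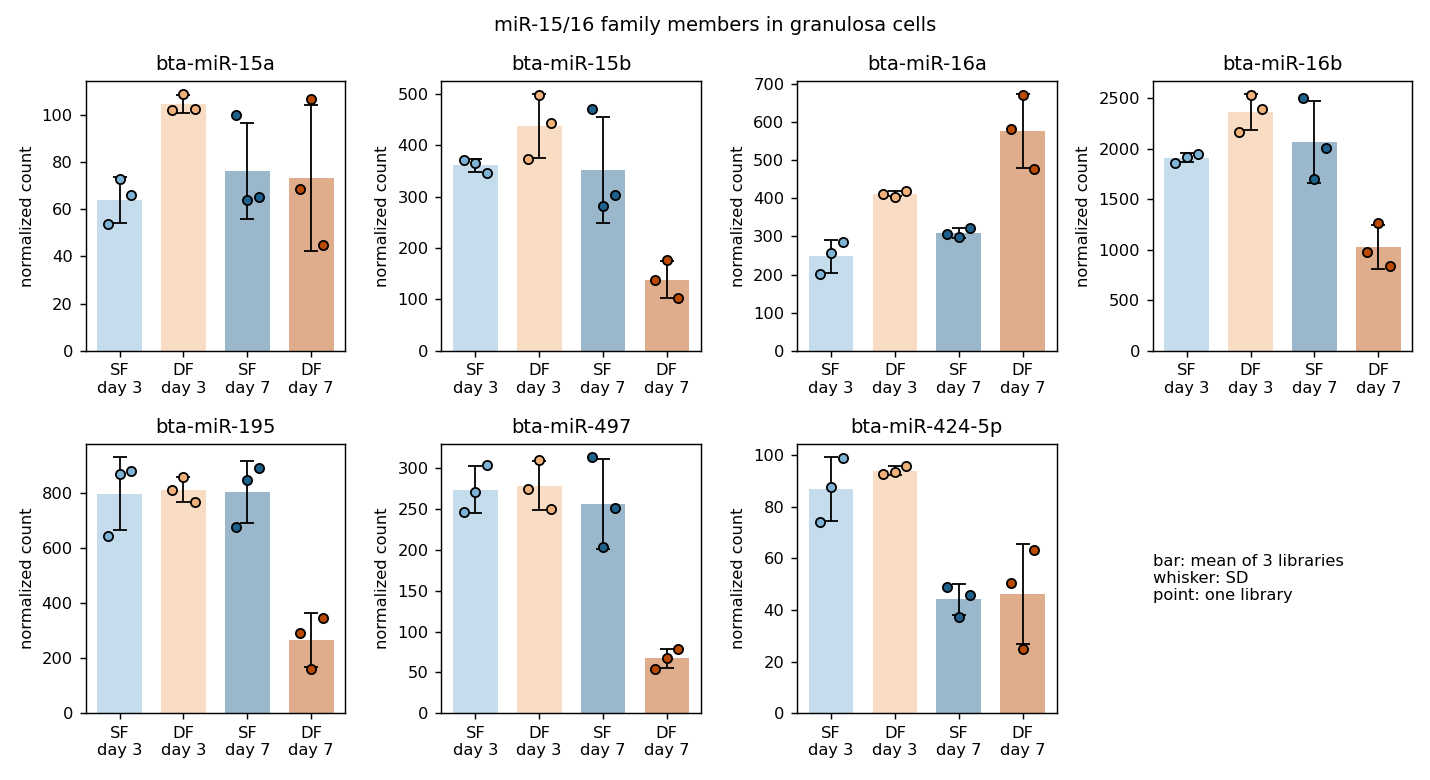
Normalized counts (vertical axis, from 0, own scale in each panel) of the 7 members in the 4 groups. Bars are means of 3 libraries, whiskers SD and points single libraries; bta-miR-15b, bta-miR-16b, bta-miR-195 and bta-miR-497 are lowest in DF at day 7, bta-miR-16a is highest there, and bta-miR-424-5p is lower at day 7 in both follicle classes.

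To understand whether these miRNAs differed between SF and DF while follicles were being recruited, both classes were compared at day 3. No member was differentially expressed (edgeR), while 5.67% of 335 tested miRNAs were. DESeq2 also called no member, and edgeR gave 4 at an unadjusted p under 0.05. All 7 members had a negative value for SF against DF, where 47.8% of all tested miRNAs had a positive one, with a median of -0.32 beside -0.04 over all tested miRNAs. For bta-miR-16a the log2 fold change was -0.78 (SE 0.17, edgeR adjusted p = 0.00178) and for bta-miR-15a -0.76 (SE 0.20, edgeR adjusted p = 0.0130), so that both passed the FDR and stayed under the fold threshold. The value of bta-miR-16b was -0.35 (SE 0.12, edgeR adjusted p = 0.0695). Thus 3 members passed the FDR, as did 16.7% of all miRNAs, and the libraries of SF and DF did not overlap for these 3 and bta-miR-15b, as for 27.8% of all. The other 4 lay between -0.32 and -0.07, with adjusted p values of at least 0.192. Without 1 library or under another setting the adjusted p of bta-miR-15a reached 0.237 and that of bta-miR-16b 0.407, while that of bta-miR-16a stayed at 0.0508 or less.

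At day 7 the follicle classes differed in most members. In SF, 4 of the 7 had higher counts than in DF and none had lower counts at the thresholds, while of 350 tested miRNAs 33.4% were differentially expressed, 15.1% with higher counts in SF (edgeR). The log2 fold change was 2.00 for bta-miR-497 (SE 0.27, edgeR adjusted p = 0.000418), 1.67 for bta-miR-195 (SE 0.29, edgeR adjusted p = 0.00155), 1.42 for bta-miR-15b (SE 0.31, edgeR adjusted p = 0.00651) and 1.08 for bta-miR-16b (SE 0.25, edgeR adjusted p = 0.00824). The first 3 were called in all 14 alternative fits. The call of bta-miR-16b was lost without replicate 1 of SF, without replicate 3 of DF and with library size alone, at log2 fold changes of 0.93, 0.93 and 0.94. SF and DF libraries did not overlap for these 4 and bta-miR-16a, and the same 5 passed the FDR, beside 45.7% and 39.7% of all tested miRNAs. In the other direction, bta-miR-16a had a log2 fold change of -0.83 (SE 0.23, edgeR adjusted p = 0.0188), under the fold threshold. For bta-miR-15a and bta-miR-424-5p the values were 0.14 ± 0.37 and -0.01 ± 0.34 (standard error), and their signs changed when single libraries were left out.

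The temporal change was first examined in DF. From day 3 to day 7, 5 of the 7 members decreased, where 40.3% of 360 tested miRNAs were differentially expressed and 15.8% with lower counts at day 7 (edgeR). The log2 fold change was -2.07 for bta-miR-497 (SE 0.24, edgeR adjusted p = 1.03e-05), -1.68 for bta-miR-15b (SE 0.25, edgeR adjusted p = 0.000106), -1.63 for bta-miR-195 (SE 0.26, edgeR adjusted p = 0.000148) and -1.22 for bta-miR-16b (SE 0.21, edgeR adjusted p = 0.000353). Each of these 4 calls was kept in all 14 alternative fits. The decrease of bta-miR-424-5p, -1.01 (SE 0.30, edgeR adjusted p = 0.0142), was at the fold threshold. Without replicate 2 of DF at day 7 it was -0.75, with all 12 samples in one fit -0.99 and with a filter of at least 10 reads in at least 3 samples it was -0.999 and just short of the threshold, and its call was lost in each. The only member with a positive value was bta-miR-16a, with a log2 fold change of 0.47 (SE 0.21, edgeR adjusted p = 0.0944), under the fold threshold. The libraries of the days did not overlap for 6 of the 7 members, all but bta-miR-15a, and the same 6 passed the FDR, beside 50% and 47.2% of all tested miRNAs. The median over the 7 members was -1.22, beside 0.05 over all tested miRNAs. This comparison and that of SF with DF at day 7 share the 3 DF libraries of day 7, so that they are not separate evidence.

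**Figure D3:**
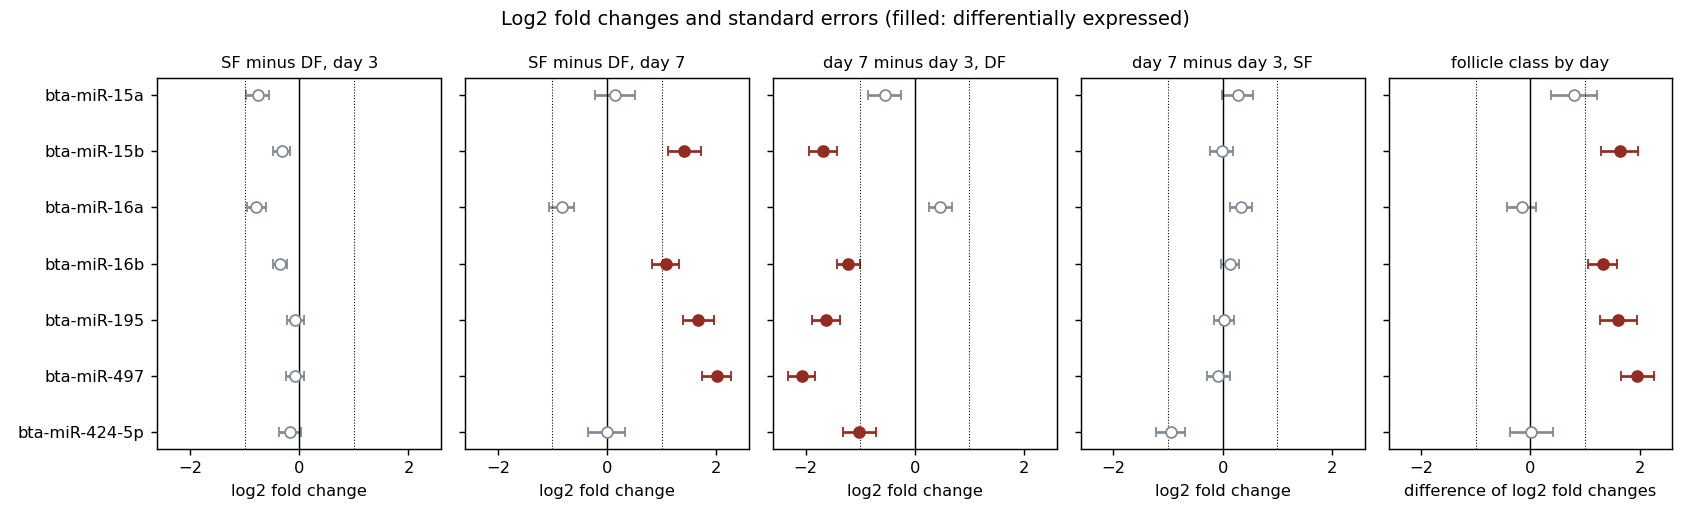
Log2 fold changes of the 7 members (horizontal axis) with standard errors (whiskers) in the 4 comparisons, and the change in the SF minus DF value over time in the last panel. Filled points were differentially expressed and dotted lines mark a log2 value of 1 in either direction; 4 members stand to the right at day 7 and 5 to the left for DF over time, and none is filled at day 3 or in SF.

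**Figure D4:**
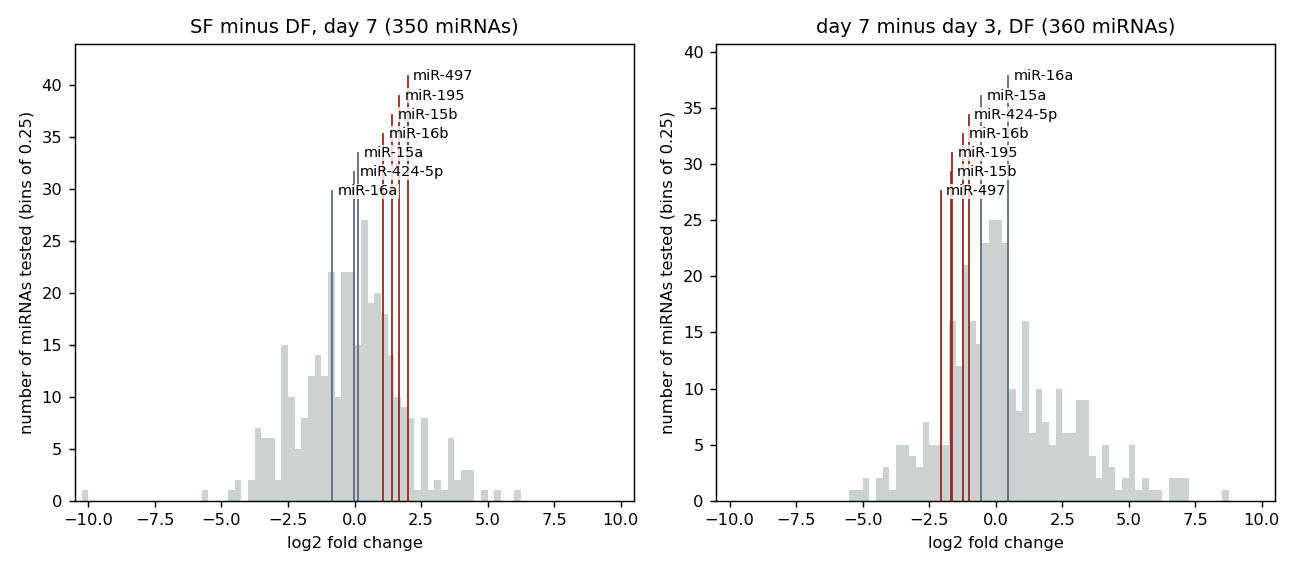
Number of tested miRNAs by log2 fold change (horizontal axis, bins of 0.25) for SF minus DF at day 7 and for day 7 minus day 3 in DF, with the 7 members as lines, red where differentially expressed. The members lie within the body of both distributions, from -0.83 to 2.00 and from -2.07 to 0.47.

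In SF over time no member was differentially expressed, and 0.593% of 337 tested miRNAs were (2 miRNAs, edgeR). DESeq2 called 5 miRNAs here and no member. The study itself, also using DESeq2, lists bta-miR-424-5p among the miRNAs decreased in SF at day 7. At an unadjusted p under 0.05, edgeR gave 1 member, bta-miR-424-5p, with a log2 fold change of -0.95 (SE 0.27, edgeR adjusted p = 0.144). Its libraries and those of bta-miR-16a did not overlap between the days, as was so for 13.9% of all tested miRNAs. Without replicate 1 of SF at day 7 it was -1.05 and was called (adjusted p = 0.0159, edgeR), and DESeq2 did not call it. The other 6 members had log2 fold changes between -0.08 and 0.34, and 4 of the 7 values were positive.

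Whether the difference between SF and DF itself changed from day 3 to day 7 was tested as an interaction over all 12 libraries. Of 378 miRNAs tested, 26.5% passed the thresholds and 12.2% with a positive value (edgeR), and 4 of the 7 members were among the latter. The SF to DF difference was larger at day 7 by 1.96 on the log2 scale for bta-miR-497 (SE 0.31, edgeR adjusted p = 0.000136), by 1.63 for bta-miR-15b (SE 0.34, edgeR adjusted p = 0.00157), by 1.61 for bta-miR-195 (SE 0.34, edgeR adjusted p = 0.00180) and by 1.32 for bta-miR-16b (SE 0.26, edgeR adjusted p = 0.00107). All 4 were called in each of the 19 alternative fits. For bta-miR-16a the interaction was -0.16 ± 0.27 (standard error), beside its -0.78 for SF against DF at day 3 and -0.83 at day 7, and for bta-miR-424-5p it was 0.02 ± 0.40. The value of bta-miR-15a was 0.80 (SE 0.41, edgeR adjusted p = 0.195), and without replicate 2 of DF at day 7 it was 1.17 and called (adjusted p = 0.0305, edgeR).

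Ratios of raw reads within a library do not depend on how libraries are scaled, and they were taken for members with like names and for members of the same cluster. The SF libraries of day 3 had 9.30, 7.49 and 6.84 reads of bta-miR-16b per read of bta-miR-16a. In DF at day 7 the libraries had 1.675, 1.88 and 1.75, and the mean ratio was 1.77 ± 0.106 (SD, n = 3), against 5.74 ± 0.494 in DF at day 3 and 6.70 ± 1.31 in SF at day 7. The ratio of bta-miR-15b to bta-miR-15a went the same way, with 1.98 ± 0.312 in DF at day 7, 4.18 ± 0.474 in DF at day 3 and 4.60 ± 0.163 in SF at day 7. For both ratios the libraries of DF at day 7 were fully apart from those of the other groups, and SF and DF were also apart at day 3.

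Some members of one cluster kept closer to each other. In DF from day 3 to day 7 the log2 ratio of bta-miR-15b to bta-miR-16b moved by -0.46 and that of bta-miR-195 to bta-miR-497 by 0.38. The smaller move of bta-miR-15b over bta-miR-16b still left all libraries apart, as did its difference of 0.33 between SF and DF at day 7. The ratio of bta-miR-195 to bta-miR-497 did not separate the groups in any comparison. Single libraries of DF at day 7 had from 2.34 to 5.34 times as many reads of bta-miR-195 as of bta-miR-497. Other pairs of one cluster moved further. For bta-miR-15a over bta-miR-16a the log2 ratio moved by -1.07 in DF over time, with all libraries apart. Its reads ratio went from 0.254 ± 0.0132 (SD, n = 3) at day 3 to 0.123 ± 0.0325 at day 7. The libraries were also apart for bta-miR-450b over bta-miR-424-5p, at -0.87, and for bta-miR-424-5p over bta-miR-424-3p, at -1.58. In an exact two-sided permutation test of 3 against 3 libraries each of these separated ratios had p = 0.1, the smallest value such a test allows, and 0.175 after adjustment over the 28 tests made.

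**Figure D5:**
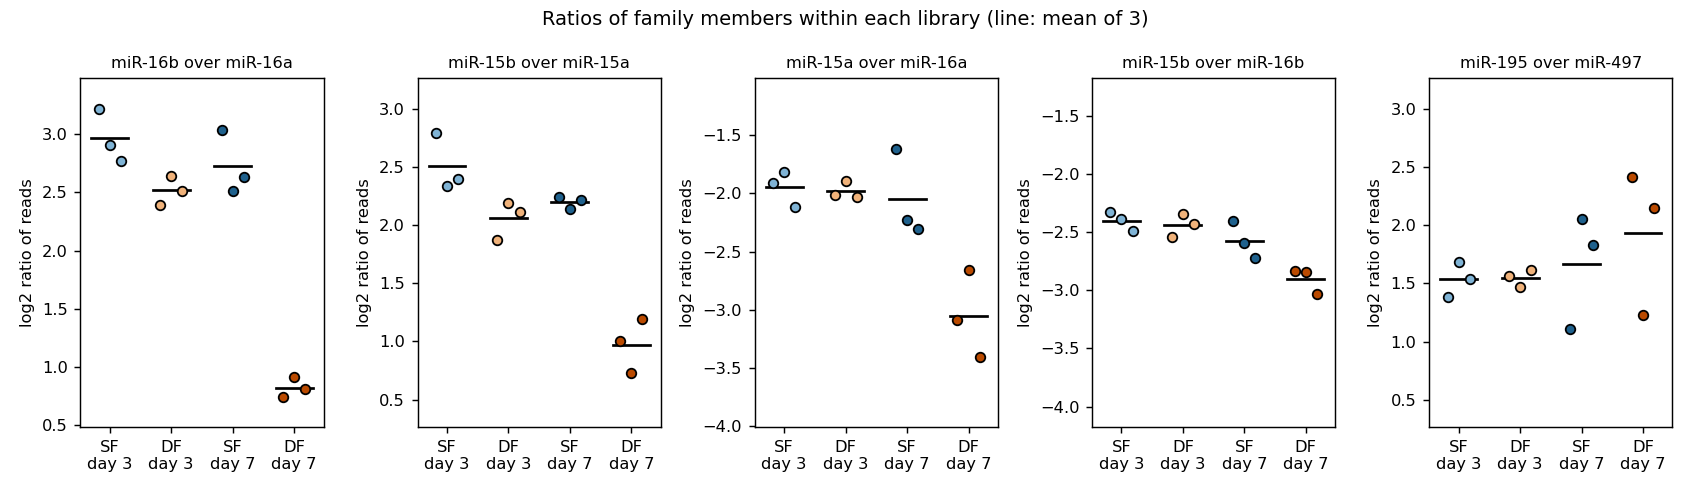
Log2 ratio of raw reads (vertical axis, the same span of 3 log2 units in each panel) for 5 pairs of members in single libraries (points), with the mean of each group (line). In the panels of bta-miR-16b over bta-miR-16a and of bta-miR-15b over bta-miR-15a, the 3 libraries of DF at day 7 lie under all others.

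The miRNAs made from the same row of hairpins as bta-miR-424-5p, namely bta-miR-424-3p, bta-miR-503-5p, bta-miR-503-3p, bta-miR-542-5p, bta-miR-450a and bta-miR-450b, were examined next. Of these 6, only bta-miR-450b was differentially expressed in any comparison. Its interaction of follicle class and day was 1.53 (SE 0.40, edgeR adjusted p = 0.00864). Too few libraries held bta-miR-503-5p for a test between SF and DF at day 7 or in DF over time. The miRNA bta-miR-450b had 741 ± 36.0 (SD, n = 3) normalized counts in DF at day 3 and 194 ± 73.1 at day 7. Its log2 fold change in DF over time was -1.95 (SE 0.26, edgeR adjusted p = 3.29e-05). At day 7 its log2 fold change of SF against DF was 1.16 (SE 0.36, edgeR adjusted p = 0.0338). For bta-miR-450a the decrease in DF was -0.77 (SE 0.31, edgeR adjusted p = 0.0650), under the fold threshold. The passenger arm bta-miR-424-3p had between 5 and 18 raw reads per library and moved by 0.49 ± 0.46 (log2, SE) in DF over time, so that the reads of bta-miR-424-5p per read of bta-miR-424-3p went from 10.9 ± 2.75 (SD, n = 3) to 3.61 ± 0.526. Both arms of bta-miR-503 had at most 10 reads in any library, and no read of bta-miR-503-5p was found in DF at day 7, so that changes in them were not detectable at this depth.

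Finally, the miRNAs with the most similar profiles were sought outside the family and its clusters, among 175 miRNAs with a mean of at least 10 normalized counts. Likeness was the root mean square difference of log2 normalized counts (with 1 added) over the 12 libraries after each miRNA was centred on its own mean, and the 3 nearest miRNAs were taken for each member. The 12 points share libraries and scaling, so that these values are a description. The closest match of all was bta-miR-191 with bta-miR-16b, at 0.14, beside a median of 0.68 over all miRNAs compared with bta-miR-16b. From DF at day 3 to DF at day 7, bta-miR-191 went from 11717 ± 757 to 5449 ± 444 normalized counts (SD, n = 3). The next for bta-miR-16b were bta-miR-425-5p and bta-miR-2478. Nearest to bta-miR-195 were bta-miR-31, at 0.19, bta-miR-574 and bta-miR-202, and nearest to bta-miR-497 were bta-miR-574, at 0.23, bta-miR-30e-5p and bta-miR-505. For bta-miR-15b they were bta-miR-769, bta-miR-30e-5p and bta-miR-484, and for bta-miR-15a bta-miR-210, bta-let-7i and bta-miR-502b. The nearest to bta-miR-16a were bta-miR-421, bta-miR-22-3p and bta-miR-6123, at 0.31 to 0.32, and of these bta-miR-22-3p had 5617 ± 523 normalized counts in DF at day 7 against 2775 ± 348 at day 3. For bta-miR-424-5p the nearest, bta-miR-652, bta-miR-148b and bta-miR-374b, were at 0.35 to 0.40. Within the family the closest pair was bta-miR-15b with bta-miR-16b, at 0.21, and the farthest was bta-miR-16a with bta-miR-497, at 1.28.

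Beside the changes in DF at day 7 stood those of miRNAs known from other cells. Of the 4 leukocyte miRNAs, bta-miR-142-5p, bta-miR-142-3p, bta-miR-150 and bta-miR-223, all 4 increased in DF from day 3 to day 7 (edgeR), with summed normalized counts of 116 to 162 in the DF libraries of day 3 and of 783 to 8636 at day 7. The sum rested on bta-miR-142-5p and bta-miR-150. In the DF libraries of day 7 bta-miR-142-3p had only 1 to 5 raw reads and bta-miR-223 only 5 to 6, and bta-miR-142-3p had no read at day 3. Of the 3 erythrocyte miRNAs, bta-miR-451, bta-miR-486 and bta-miR-144, none was differentially expressed in DF over time, and their sum was 737 to 1087 at day 3 and 808.1 to 2322 at day 7. Of the endothelial arms of bta-miR-126, 1 of 2 increased there, with sums of 61.6 to 101 and of 129.99 to 160.2. Both miRNAs of smooth muscle and theca stroma, bta-miR-143 and bta-miR-145, increased, with sums of 2206 to 3894 and 6723 to 14191. The gonad miRNA bta-miR-202 decreased, with a log2 fold change of -2.28 (SE 0.29, edgeR adjusted p = 1.93e-05), which exceeds the change of each family member. Between SF and DF at day 7 the same lists differed as well (edgeR). There, 3 of 4 leukocyte miRNAs, both tested erythrocyte miRNAs and 1 of 2 stroma miRNAs were higher in DF, neither arm of bta-miR-126 was differentially expressed, and bta-miR-202 was lower in DF. The erythrocyte sum was 438 to 515 in SF and 808.1 to 2322 in DF, the leukocyte sum 184 to 705 and 783 to 8636, and the stroma sum 2869 to 4909 and 6723 to 14191. The part of these cells in the family's values was not tested. Fewer granulosa cells in a sample and less of a miRNA per cell cannot be told apart in these libraries.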

How the data were processed

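Small RNA of 12 granulosa cell samples was sequenced, 3 in each of 4 groups. After adapter removal (cutadapt) and alignment to the UMD 3.1 build, the authors quantified known miRBase miRNAs using miRDeep2 and deposited raw read counts per mature miRNA and precursor, without normalization. Base calling used CASAVA 1.8.0, per the labels. A read that matches several precursors is counted at each, and for each mature name the precursor entry with most reads was kept. Groups and replicate numbers came from the labels. No 2 libraries of a group were duplicates, their chi-square over degrees of freedom being 10.2 to 128.

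Comparisons used the counts of their own 6 libraries (all 12 for the interaction), miRNAs read in 2 or more replicates of either group, median-of-ratios factors and edgeR 4.0.16 (quasi-likelihood F test, two-sided) in R 4.3.3, with Benjamini-Hochberg adjustment over all tested miRNAs. Standard errors are the log2 fold change divided by the square root of F. Alternatives were DESeq2 1.42.0, TMM, library size alone, no filter, a filter of at least 10 reads in at least 3 samples, all 12 samples in one fit, counts summed over precursors, a replicate block and leaving out each library in turn. The procedure was tested on simulated counts. Named were the 7 members, their cluster partners, markers of other cells and the 3 miRNAs most alike to each member. The members and lists were chosen with earlier results of these data known. Replicate numbers were taken as not pairing samples, since no comparison had all 3 correlations of same-numbered deviations over 0.1. At day 7 all 3 SF and DF pairs were positive (0.0847 to 0.126), and elsewhere they were -0.12 to 0.14. Sharing of animals between SF and DF cannot be settled from the labels. Seed sequences were not used here.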

Additional observations from a re-analysis of the deposited data

Results flagged for a closer look

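In 4 members SF and DF were farther apart on day 7 than on day 3, by the interaction test over all 12 libraries with edgeR. The difference of the log2 fold changes was 1.96 for bta-miR-497, 1.63 for bta-miR-15b, 1.61 for bta-miR-195 and 1.32 for bta-miR-16b. Groups of 3 libraries are too small for a test of single outlying samples, and none was made.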

How the results depend on the processing

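Over 525 log2 fold changes of the 7 members under alternatives, 495 kept their direction and their side of the thresholds, 22 changed sign, 6 lost a call and 2 gained one. Sign changes were of small values: bta-miR-424-5p for SF against DF at day 7 was 0.0063 with counts summed over precursors and 0.0607 with a replicate block, and over time in SF bta-miR-15b was 0.0174 with TMM, and bta-miR-16b and bta-miR-195 were -0.0058 and -0.12 with library size alone. Library size alone moved the median of all miRNAs by -0.14 in that comparison, by -0.14 at day 7 and by -0.13 in DF.

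Leaving out 1 library gave -0.19 to 0.0542 for bta-miR-195 at day 3, -0.13 to 0.51 for bta-miR-15a and -0.28 to 0.24 for bta-miR-424-5p at day 7, and -0.21 to 0.29 for the interaction of bta-miR-424-5p. In SF over time it gave -0.31 to 0.0925 for bta-miR-15b, -0.0476 to 0.22 for bta-miR-16b, -0.14 to 0.12 for bta-miR-195 and -0.27 to 0.0313 for bta-miR-497. The members called numbered 0 to 0 at day 3, 3 to 4 at day 7, 4 to 5 in DF, 0 to 1 in SF (1 without replicate 1 of SF at day 7) and 4 to 5 for the interaction.

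Of all miRNAs, 19 were called at day 3, against 11 with DESeq2, 12 with at least 10 reads in at least 3 samples, 8 with all 12 samples in one fit and 10 to 22 with 1 library left out (10 without replicate 1 of SF). In DF 145 were called, against 92 with the 10-read filter. In SF 2 were called over time, against 5 with DESeq2, 12 with no filter, 0 with the 10-read filter, 1 with all 12 samples, 7 with the replicate block, and 0 to 20 with 1 library left out (20 without replicate 1 of day 7, 0 without replicate 1 or 2 of day 3). The replicate numbers were taken as not pairing the samples, and the block changed no count of members called. The cause of these changes was not tested. Depth limits bta-miR-424-5p, with as few as 15 reads in a library, and bta-miR-15a.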
